A study of Mus musculus with 154 samples.

Results

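The genes described here encode 9 transcription factors that are enriched in hepatocytes, namely Hnf4a, Foxa1, Foxa2, Foxa3, Cebpa, Cebpb, Onecut1, Nr5a2 and Prox1. They were chosen by symbol, and all 9 were among the 13289 genes counted. Their levels came from the livers of male mice of 24 strains, aged 5 weeks and fasted overnight. The control strain was C57BL/6J (B6, n = 20). Each of the 8 single chromosome substitution strains (single CSSs) carried 1 copy of 1 chromosome of strain A/J on an otherwise B6 genome, with A/J chromosome 3, 4, 5, 6, 8, 10, 14 or 17. Each of the 15 double CSSs was a cross of 2 such strains and carried 1 copy of each of 2 A/J chromosomes. There were 63 mice of single CSSs, with 7 for (B6 x B6.A5)F1 and 8 for every other strain, and 71 mice of double CSSs, in groups of 3 to 6. The dam is written first, so (B6.A14 x B6.A8)F1 had a B6.A14 dam. Every mouse, control or CSS, was B6 for the rest of its genome, and a substitution replaced a whole chromosome, so that no effect can be placed within it. Because all substituted chromosomes were heterozygous, effects that need 2 A/J copies were not measured.

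Hepatocyte identity is held by a small set of such factors that bind the promoters and enhancers of liver genes together and also regulate each other's genes. HNF4A and NR5A2 are nuclear receptors, FOXA proteins are forkhead factors that can bind closed chromatin, the C/EBP proteins are leucine zipper factors, ONECUT1 (HNF6) is a cut-homeodomain factor and PROX1 is a homeodomain factor. Their known targets include genes for plasma proteins, apolipoproteins, bile acid enzymes, gluconeogenesis and the urea cycle.

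The reads counted per mouse were between 4638701 and 30465477. The expected liver markers were present, with the summed level of 6 hepatocyte markers between 54651 and 160081 CPM (counts scaled to a common library total) over all mice. The other cell types of liver also contributed, since 6 Kupffer cell markers summed to 186 to 500 CPM, 6 endothelial markers to 250.9 to 373.6 CPM and 6 stellate cell markers to 229 to 406.9 CPM. The remaining lists were led by erythroid markers at 111 to 753 CPM, followed by 4 cholangiocyte markers at 21.3 to 75.5 CPM, 2 lymphocyte markers at 10.3 to 46.5 CPM and the only listed pancreas marker, Cela1, at 3.03 to 11.4 CPM. The markers Krt19, Cftr, Cd3e, Nkg7, Ctrb1, Cpa1, Pnlip and Cel were not among the genes counted. In bulk liver, fewer cells of a type and less RNA per cell cannot be told apart. Replicate 3 of (B6.A14 x B6.A4)F1 stood apart from its label, because 4 Y-linked genes summed to 2.94 CPM in it against 228 to 432 CPM in the other mice. Calls that changed without this mouse are given beside them, where the fit was repeated without it. Because the whole model was then fitted again, calls in strains without this mouse could change too. Sequencing batches are not given in the labels, so they were not in the model and their part was not tested.

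The 9 genes lay on chromosomes 1, 2, 7, 9 and 12, none of which was substituted, so every effect on them was in trans. In the mm10 assembly Hnf4a lies on the plus strand of chromosome 2 from 163506808 to 163572910, Foxa2 on the minus strand from 148042877 to 148046969 and Cebpb on the plus strand from 167688915 to 167690418 of the same chromosome. Foxa3 is on the minus strand of chromosome 7 from 19013284 to 19023538 and Cebpa on the plus strand from 35119293 to 35121928. Nr5a2 and Prox1 are on the minus strand of chromosome 1, from 136842571 to 136960448 and from 190118035 to 190170714. Foxa1 lies on the minus strand of chromosome 12 from 57540628 to 57546916, and Onecut1 on the plus strand of chromosome 9 from 74861921 to 74891781.

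Per length of annotated exon, Hnf4a had the highest level of the 9 in B6 liver, at 130 ± 15.7 CPM per kilobase (SD, n = 20). Cebpa followed at 58.2 ± 13.004, Cebpb at 31.6 ± 8.24 and Foxa3 at 25.9 ± 4.82 CPM per kilobase. Prox1 and Nr5a2 followed at 13.5 ± 1.61 and 12.3 ± 1.07, a difference below the SD of Prox1 and above that of Nr5a2. Foxa2 (6.87 ± 1.58), Foxa1 (1.79 ± 0.472) and Onecut1 (0.754 ± 0.742) were the lowest. The counts behind these levels ran from 2384 to 21809 per mouse for Hnf4a and from 312 to 2702 for Nr5a2. Foxa1 had between 21 and 281 counts per mouse. Onecut1 had a median of 43.5 counts and a lowest count of 6, with fewer than 15 counts in 11 mice. It also varied widely between mice, with an SD of 0.84 log2 CPM in B6, so that small changes in Onecut1 could not be detected. The part of depth in this spread was not tested.

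The promoters of Hnf4a, Foxa3 and Nr5a2, the 3 factors with the most changes below, are shown because these genes regulate each other and the search for motifs of the set is made there. They are RefSeq windows of the GRCm38.p6 build, which has the coordinates of mm10, and hold bases before the start site that no annotated exon touches, written 5′ to 3′ on the strand of the gene, with matches to a motif in capitals.
Hnf4a, upstream start, chr2:163506607-163506807, plus strand: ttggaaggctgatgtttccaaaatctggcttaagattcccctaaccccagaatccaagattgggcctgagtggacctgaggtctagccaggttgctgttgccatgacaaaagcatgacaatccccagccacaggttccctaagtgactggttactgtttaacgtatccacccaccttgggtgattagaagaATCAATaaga
Hnf4a, downstream start, chr2:163546943-163547154, plus strand: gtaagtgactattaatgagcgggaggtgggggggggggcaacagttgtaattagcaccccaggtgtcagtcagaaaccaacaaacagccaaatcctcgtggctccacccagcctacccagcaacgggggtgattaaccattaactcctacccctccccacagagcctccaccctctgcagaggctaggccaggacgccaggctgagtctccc
Foxa3, chr7:19023540-19023789, minus strand: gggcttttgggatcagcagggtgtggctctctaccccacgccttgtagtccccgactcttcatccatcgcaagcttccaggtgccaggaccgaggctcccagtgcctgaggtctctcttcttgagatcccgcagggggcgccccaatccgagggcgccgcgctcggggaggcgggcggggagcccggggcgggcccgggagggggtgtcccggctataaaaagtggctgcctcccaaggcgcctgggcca
Nr5a2, upstream start, chr1:136960449-136960698, minus strand: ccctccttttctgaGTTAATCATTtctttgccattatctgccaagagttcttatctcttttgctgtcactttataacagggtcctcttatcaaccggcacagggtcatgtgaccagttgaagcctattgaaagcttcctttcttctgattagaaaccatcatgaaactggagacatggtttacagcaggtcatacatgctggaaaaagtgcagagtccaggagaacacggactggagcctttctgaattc
Nr5a2, downstream start, chr1:136953631-136953880, minus strand: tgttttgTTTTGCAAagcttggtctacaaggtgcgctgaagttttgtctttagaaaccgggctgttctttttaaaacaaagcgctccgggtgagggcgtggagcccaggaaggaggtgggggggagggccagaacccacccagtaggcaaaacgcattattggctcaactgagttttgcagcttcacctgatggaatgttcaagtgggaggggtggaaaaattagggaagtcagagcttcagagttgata
Both strands of the 250 bases before each start were searched for 6 motifs. The FOXA motif TGTTTAC was in 3.17% of 32851 RefSeq windows of this length, the HNF4 motif AAAGTCC in 3.58%, the ONECUT motif ATTGAT in 6.72%, the C/EBP motif TTGCNNAA in 9.56%, the NR5A motif AAGGTCA in 4.08% and the HNF1 motif in 0.371%. Of the 14 windows of the 9 genes, 5 held a match. The upstream Hnf4a window held the ONECUT motif, read on the other strand, at positions -59 to -54 from its start. The Nr5a2 windows held the HNF1 motif at -236 to -227 and the C/EBP motif at -243 to -236. Foxa1 held a FOXA match at -141 to -135 and the upstream Foxa2 window an ONECUT match at -213 to -208. The Foxa3 window and the downstream Hnf4a window held none of these letters, and a match is a description of the sequence only.

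The first question was whether strain differences reach these factors. The joint edgeR quasi-likelihood test of all 23 strain coefficients, with Benjamini-Hochberg adjustment over all genes, called 6 of the 9, where it called 51.4% of all genes. These were Foxa3 (adjusted p = 0.000381), Cebpb (0.000738), Nr5a2 (0.00193), Hnf4a (0.00238), Prox1 (0.0039) and Foxa2 (0.00904). The joint test of the 15 interactions called Foxa3, Hnf4a, Nr5a2 and Foxa2, which is 4 of 9, where 27.4% of all genes were called. Cebpa, Foxa1 and Onecut1 passed neither test, with adjusted p = 0.158, 0.486 and 0.267 for strains. They also had no main effect or interaction at an unadjusted p under 0.05 among 23 each, nor a call by DESeq2.

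Single effects on the factors were small and went 1 way. Of 72 pairs of a factor and a substituted chromosome, 13 were called at an adjusted p under 0.05, and in all 13 the factor was lower in the single CSS than in B6, by 0.19 to 0.50 on the log2 scale. The share called over all trans genes and the 8 chromosomes was 10.7%. None of the 72 was called higher, by edgeR or by DESeq2, and 3 were higher at an unadjusted p under 0.05, all of them Prox1. Of 135 pairs of a factor and an interaction, 12 were called, all positive, by 0.23 to 0.88, where 6.04% of trans tests were called. A positive interaction means that the double CSS lay above the sum of both single effects. No negative interaction was called by edgeR or DESeq2 or had an unadjusted p under 0.05, against 43 positive ones. All main effects were taken against the same 20 B6 mice and enter every interaction, so neither the 13 nor the 12 calls are independent of each other. With the exclusion of the mouse with hardly any Y-linked counts there were 12 and 9 calls. With 10 surrogate variables in place of 5 there were 2 and 3, and with none there were 21 and 22.

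**Figure D1:**
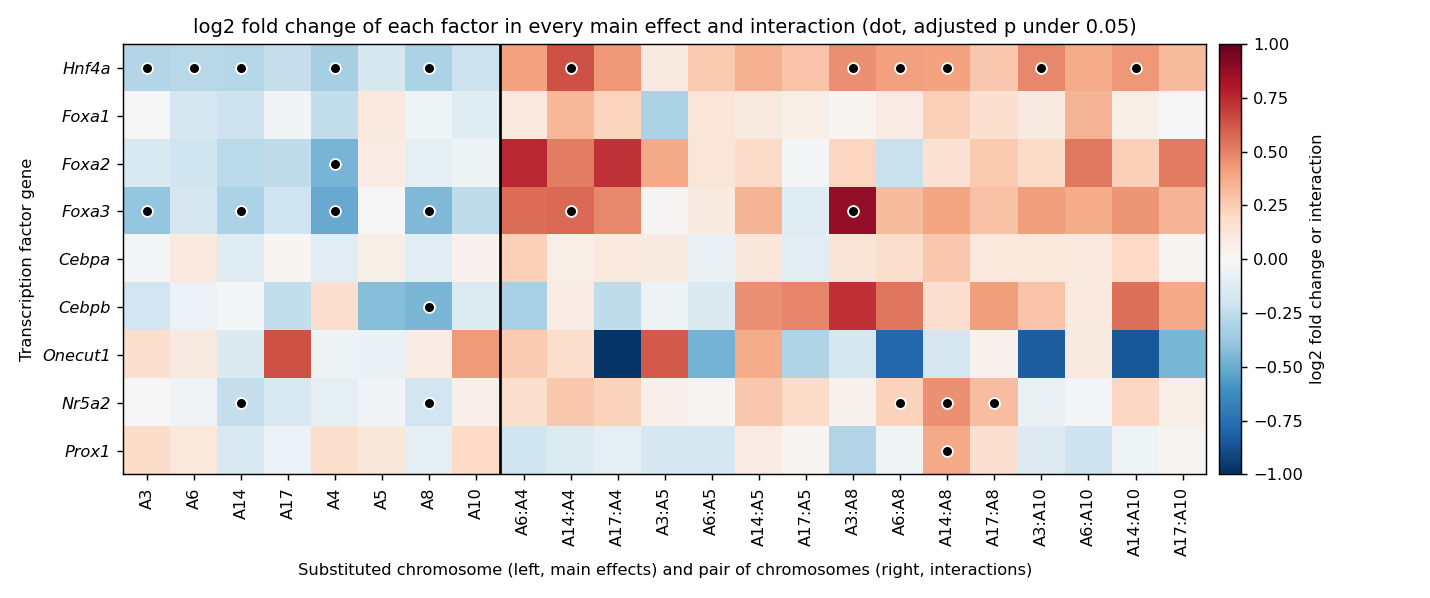
Colour gives the fitted log2 fold change against B6 (8 columns left of the line) or the interaction (15 columns right of it) of each of the 9 factors, and dots mark an adjusted p under 0.05. The 13 dots on the left are all on lower values and the 12 on the right all on higher values, and the Hnf4a row is lower in all 8 main effects and higher in all 15 interactions.

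Hnf4a, the nuclear receptor at the centre of the hepatocyte network, accounted for 11 of the 25 calls. In B6 its log2 CPM ran from 8.73 to 9.49, with a median of 9.32. In (B6 x B6.A8)F1 it ran from 8.79 to 9.08 with a median of 8.92, and in (B6.A14 x B6)F1 from 8.73 to 9.38 with a median of 8.89. Both medians were therefore in the lower part of the B6 range, and both strains overlapped B6, with 1 (B6.A14 x B6)F1 mouse above the B6 median. The fitted Hnf4a level fell by 0.32 (SE 0.08) with chromosome 8 (adjusted p = 0.00187) and by 0.29 (SE 0.08) with chromosome 14 (adjusted p = 0.00345). It fell by similar amounts with chromosome 4 (0.33, SE 0.08, adjusted p = 0.00191), chromosome 3 (0.29, SE 0.07, adjusted p = 0.0157) and chromosome 6 (0.28, SE 0.08, adjusted p = 0.0112). For chromosomes 17, 10 and 5 the Hnf4a estimates were -0.23, -0.21 and -0.16, with adjusted p = 0.0751, 0.0776 and 0.398. With 10 surrogate variables only the Hnf4a change with chromosome 3 was still called (adjusted p = 0.0242), although all 8 estimates stayed negative. That call was in turn the one lost with 5 within-strain principal components in place of the surrogate variables (-0.24, adjusted p = 0.0845).

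Over the 24 strains the mean Hnf4a level covered 0.41 log2 units, and B6 had the second highest mean. The order began with (B6.A14 x B6.A4)F1 at 9.33 ± 0.09 log2 CPM (SD, n = 5), B6 at 9.29 ± 0.19 (n = 20), (B6.A3 x B6.A10)F1 at 9.26 ± 0.07 (n = 5), (B6.A14 x B6.A10)F1 at 9.22 ± 0.09 (n = 5), (B6.A17 x B6.A5)F1 at 9.21 ± 0.13 (n = 5) and (B6.A14 x B6.A5)F1 at 9.20 ± 0.15 (n = 5). The Hnf4a means of (B6.A3 x B6.A8)F1 (9.20 ± 0.10, n = 3), (B6.A6 x B6.A8)F1 (9.17 ± 0.16, n = 6), (B6.A6 x B6.A5)F1 (9.17 ± 0.14, n = 4), (B6 x B6.A5)F1 (9.16 ± 0.14, n = 7), (B6.A6 x B6.A10)F1 (9.16 ± 0.18, n = 5) and (B6.A17 x B6.A10)F1 (9.14 ± 0.22, n = 4) came next. They were followed by (B6.A17 x B6.A4)F1 (9.14 ± 0.25, n = 4), (B6.A6 x B6.A4)F1 (9.12 ± 0.16, n = 5), (B6.A14 x B6.A8)F1 (9.09 ± 0.17, n = 5), (B6.A17 x B6.A8)F1 (9.05 ± 0.15, n = 5), (B6 x B6.A10)F1 (9.04 ± 0.25, n = 8) and (B6.A6 x B6)F1 (9.02 ± 0.15, n = 8). The lowest Hnf4a means were those of (B6.A17 x B6)F1 (8.998 ± 0.23, n = 8), (B6.A3 x B6)F1 (8.97 ± 0.29, n = 8), (B6.A3 x B6.A5)F1 (8.97 ± 0.11, n = 5), (B6 x B6.A4)F1 (8.96 ± 0.24, n = 8), (B6.A14 x B6)F1 (8.94 ± 0.21, n = 8) and (B6 x B6.A8)F1 (8.92 ± 0.10, n = 8). None of the 23 neighbours in this order differed by more than the larger of their SDs.

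**Figure D2:**
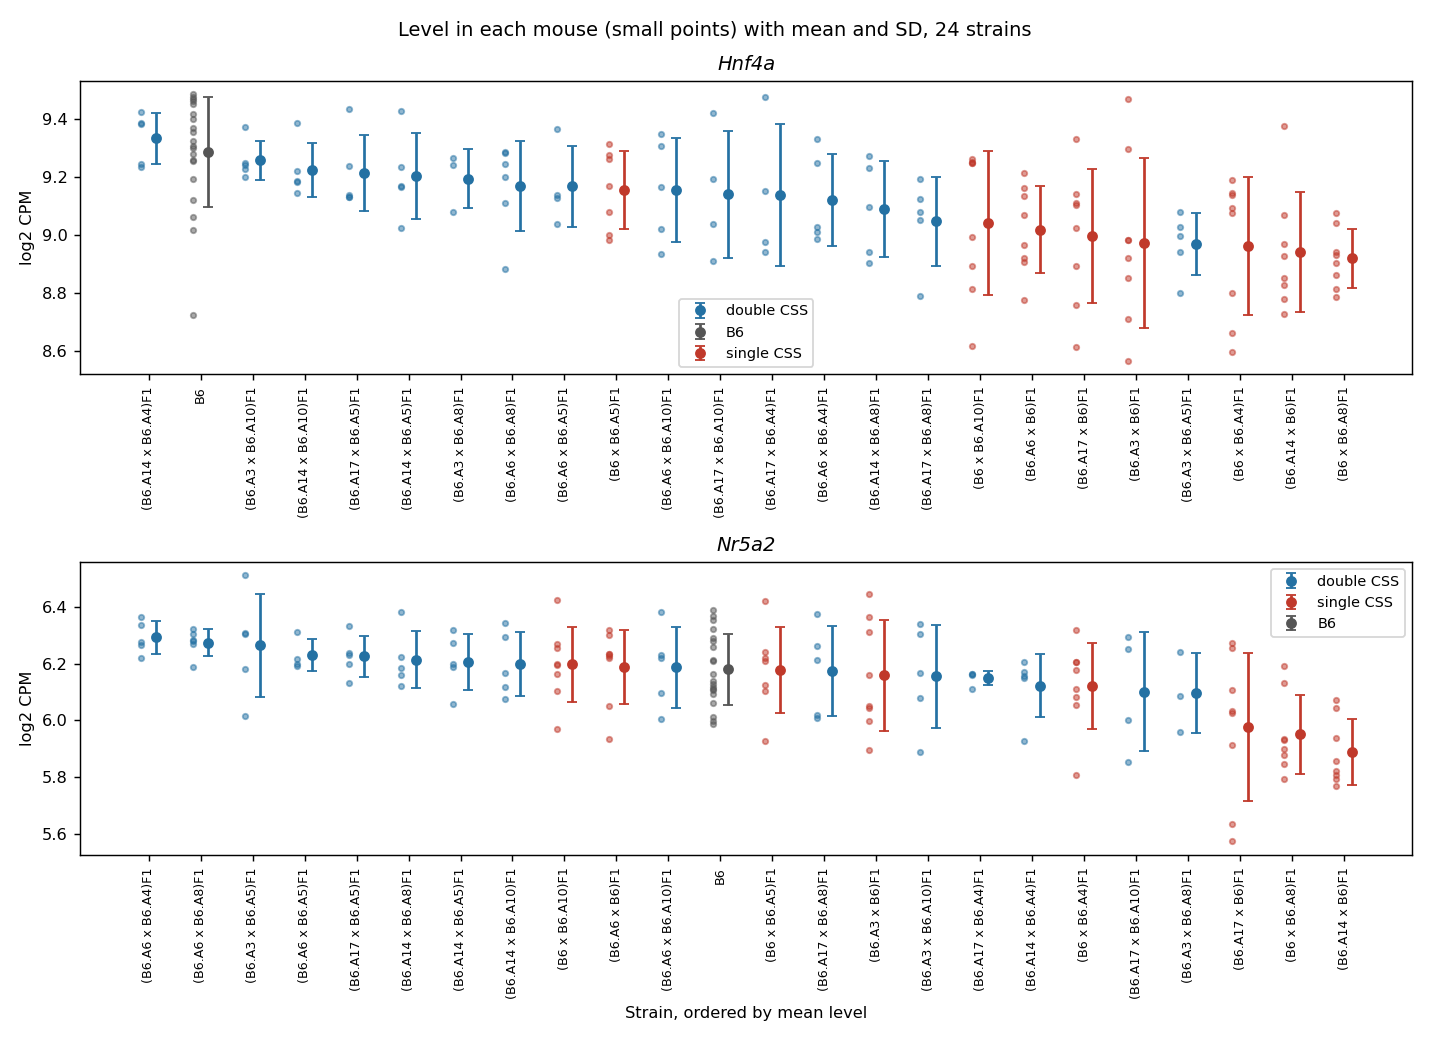
Small points give the log2 CPM of Hnf4a (top) and Nr5a2 (bottom) in each mouse, with the mean and SD beside them, for 24 strains ordered by mean. For Hnf4a, 7 of the 8 single CSSs lie in the lower part and B6 is second, whereas for Nr5a2 B6 is in the middle and the chromosome 17, 8 and 14 single CSSs are the last 3.

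In the double CSSs the fitted difference of Hnf4a from B6 ran from -0.36 (SE 0.09) in (B6.A3 x B6.A5)F1 and -0.28 (SE 0.09) in (B6.A17 x B6.A8)F1 to 0.02 (SE 0.09) in (B6.A14 x B6.A4)F1, the only one above B6. Hnf4a log2 CPM in the 5 (B6.A14 x B6.A4)F1 mice was 9.38, 9.42, 9.24, 9.23 and 9.39, all above the median of either parent single CSS. The interaction A14:A4 was 0.64 (SE 0.13, adjusted p = 0.00178), and it stayed between 0.63 and 0.66 when each of the 5 mice was left out. The 5 mice of (B6.A14 x B6.A8)F1 had Hnf4a levels of 8.94, 8.90, 9.10, 9.27 and 9.23, which spread over the upper range of the single CSSs and the lower range of B6. Here A14:A8 was 0.41 (SE 0.13, adjusted p = 0.0116), and the double CSS differed from B6 by -0.20 (SE 0.09) in the fit. This A14:A8 call for Hnf4a was lost with 5 within-strain components (0.18, adjusted p = 0.305) and with 10 surrogate variables (0.09, adjusted p = 0.76). The other called Hnf4a interactions were A3:A10 (0.48, SE 0.12, adjusted p = 0.0265), A3:A8 (0.46, SE 0.14, adjusted p = 0.0308), A14:A10 (0.43, SE 0.14, adjusted p = 0.0463) and A6:A8 (0.41, SE 0.12, adjusted p = 0.00944). The Hnf4a interaction A14:A10 was no longer called when leaving out the mouse with hardly any Y-linked counts. The calls for A3:A8, A3:A10 and A14:A10 were each lost without some single mice, with the highest adjusted p at 0.122, 0.066 and 0.0852. With 10 surrogate variables A14:A4 and A3:A10 were still called for Hnf4a (adjusted p = 0.0472 and 0.0284). With 5 within-strain components A14:A4 and A6:A8 were, while A3:A8, A14:A10 and A3:A10 were not (adjusted p = 0.0581, 0.0592 and 0.0979). The remaining 9 Hnf4a interactions were also positive, down to 0.09 for A3:A5, whose 5 mice were at the level of the chromosome 3 single CSS.

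**Figure D3:**
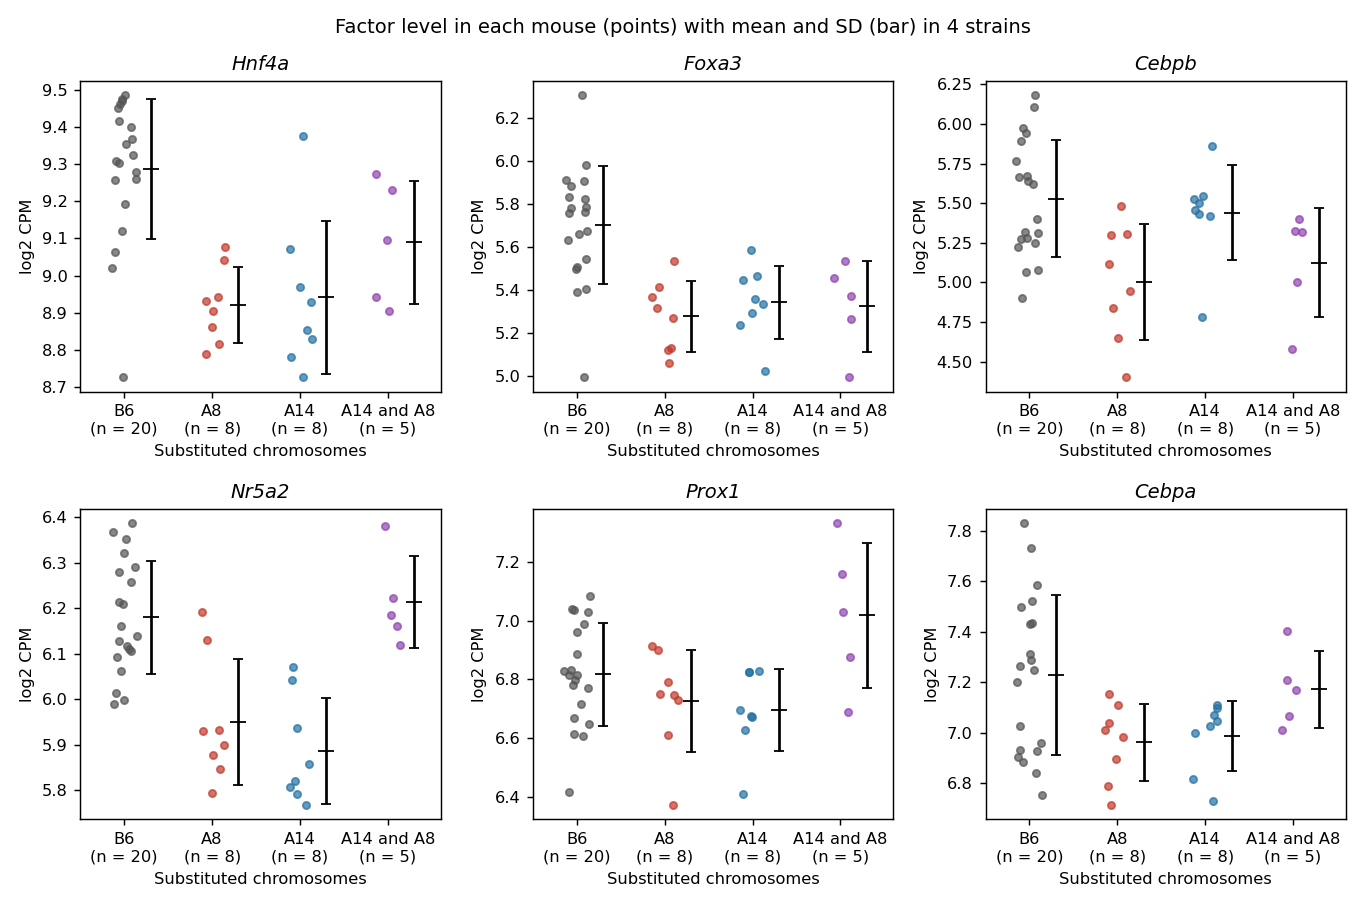
Each point is the log2 CPM of a mouse in B6, (B6 x B6.A8)F1, (B6.A14 x B6)F1 or (B6.A14 x B6.A8)F1, and bars beside the points give the mean and SD, for 6 of the factors. Nr5a2 in the double CSS (6.12 to 6.38) lies at the B6 level, Foxa3 does not return to it, and Cebpa overlaps in all 4 strains.

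Of the forkhead genes, Foxa3, which has a role in hepatic glucose production and Glut2 expression, had the largest changes. Its log2 CPM in B6 ran from 4.99 to 6.31 (median 5.76). It ran from 5.06 to 5.54 (median 5.29) in (B6 x B6.A8)F1, from 5.02 to 5.59 (median 5.35) in (B6.A14 x B6)F1, from 5.01 to 5.45 (median 5.28) in (B6 x B6.A4)F1 and from 4.76 to 5.66 (median 5.31) in (B6.A3 x B6)F1. The highest Foxa3 level of each of these strains was below the B6 median, though all overlapped the lower B6 mice. The fitted Foxa3 level fell by 0.50 (SE 0.10) with chromosome 4, by 0.44 (SE 0.11) with chromosome 8, by 0.38 (SE 0.09) with chromosome 3 and by 0.31 (SE 0.10) with chromosome 14 (adjusted p = 0.000269, 0.000722, 0.0121 and 0.0134). Only the Foxa3 change with chromosome 3 was also called with 10 surrogate variables (adjusted p = 0.0209).

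Foxa3 interactions were called for A3:A8 and A14:A4. The 3 mice of (B6.A3 x B6.A8)F1 had Foxa3 log2 CPM of 5.22, 6.17 and 5.95, of which the first was within the range of both single CSSs and the others were above both. A3:A8 was 0.88 (SE 0.18, adjusted p = 0.0011), and leaving out each mouse gave 0.79 to 1.03 with adjusted p up to 0.0359, whereas 10 surrogate variables gave 0.75 (adjusted p = 0.0585). Foxa3 levels in the 5 (B6.A14 x B6.A4)F1 mice were 5.49, 5.00, 5.30, 5.22 and 5.93, and only the last was clear of the single CSSs. That interaction, 0.56 (SE 0.17, adjusted p = 0.0359), was not called without replicate 3, the mouse with hardly any Y-linked counts, and the adjusted p rose to as much as 0.116 when other mice were left out. For A14:A8 the Foxa3 estimate was 0.39 (SE 0.17, adjusted p = 0.0633), which was called without surrogate variables (0.43, adjusted p = 0.047), with 5 within-strain components (0.45, adjusted p = 0.046) and without replicate 2 (0.44, adjusted p = 0.0458). In that double CSS Foxa3 stayed low, with levels of 5.37, 5.00, 5.26, 5.54 and 5.46 and a fitted difference from B6 of -0.36 (SE 0.12).

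Foxa2, which acts in the fasting response and bile acid balance of liver, was called in 1 pair only. It ran from 3.28 to 4.49 log2 CPM (median 4.01) in B6 and from 3.19 to 4.12 (median 3.52) in (B6 x B6.A4)F1, with overlapping ranges. The fitted fall with chromosome 4 was 0.46 (SE 0.14, adjusted p = 0.018), where 3 of the 9 factors were called, and it was not called with 10 surrogate variables (adjusted p = 0.177). Foxa2 estimates were -0.10 (SE 0.15) for chromosome 8, -0.27 (SE 0.14) for chromosome 14 and 0.14 (SE 0.24) for A14:A8, none of them called, and no single Foxa2 interaction was called. The joint interaction test did call Foxa2 (adjusted p = 0.0363). Its largest interactions were A6:A4 at 0.75 (SE 0.23, adjusted p = 0.0811) and A17:A4 at 0.72 (SE 0.24, adjusted p = 0.112). At an unadjusted p under 0.05, 5 of the 23 Foxa2 effects were higher and 1 lower. Foxa1, which overlaps with Foxa2 in liver development, had 0 calls, with main effects from -0.25 to 0.10 and SEs of 0.12 to 0.13.

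Nr5a2, the nuclear receptor LRH-1 that activates bile acid and cholesterol transport genes, had main effects called for chromosomes 8 and 14. In B6 it ran from 5.99 to 6.39 log2 CPM (median 6.15). In (B6.A14 x B6)F1 it ran from 5.77 to 6.07 (median 5.84) and in (B6 x B6.A8)F1 from 5.79 to 6.19 (median 5.91), so both medians were below the lowest B6 mouse. The fitted Nr5a2 level fell by 0.23 (SE 0.05, adjusted p = 0.000422) with chromosome 14 and by 0.19 (SE 0.06, adjusted p = 0.00477) with chromosome 8. The largest other Nr5a2 main effect was -0.15 (SE 0.05, adjusted p = 0.0758) for chromosome 17, and whether the chromosomes differ from each other was not tested.

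The combination of both substitutions left Nr5a2 at the B6 level. The 5 mice of (B6.A14 x B6.A8)F1 had log2 CPM of 6.16, 6.38, 6.12, 6.18 and 6.22, all within the B6 range and above every (B6.A14 x B6)F1 mouse. A14:A8 was 0.46 for Nr5a2 (SE 0.09, adjusted p = 1.26e-05), and the double CSS differed from B6 by 0.04 (SE 0.06). Each mouse left out in turn gave 0.39 to 0.49. This was also the only Nr5a2 call with 10 surrogate variables (0.28, adjusted p = 0.0344). Nr5a2 was called for A17:A8 (0.31, SE 0.09, adjusted p = 0.0172) and A6:A8 (0.23, SE 0.08, adjusted p = 0.0272), the second of which was lost when leaving out the mouse with hardly any Y-linked counts. Both were lost with 5 within-strain components (adjusted p = 0.119 and 0.0717), and A17:A8 also when 1 of its 5 mice was left out (adjusted p = 0.0602). In (B6.A17 x B6.A8)F1 Nr5a2 was 6.26, 6.38, 6.01, 6.21 and 6.02, and in the 6 mice of (B6.A6 x B6.A8)F1 it ran from 6.19 to 6.32 (median 6.28), while the highest (B6 x B6.A8)F1 mouse was also at 6.19.

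Over all strains Nr5a2 covered 0.41 log2 units and B6 ranked 12th of 24. The highest Nr5a2 means were those of (B6.A6 x B6.A4)F1 (6.29 ± 0.06, n = 5), (B6.A6 x B6.A8)F1 (6.27 ± 0.05, n = 6) and (B6.A3 x B6.A5)F1 (6.26 ± 0.18, n = 5). The lowest were those of (B6.A17 x B6)F1 (5.98 ± 0.26, n = 8), (B6 x B6.A8)F1 (5.95 ± 0.14, n = 8) and (B6.A14 x B6)F1 (5.89 ± 0.12, n = 8). No neighbours in the Nr5a2 order differed by more than the larger SD, and the largest gap, 0.12, was smaller than the median SD of 0.13.

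Cebpb, the C/EBP factor that responds to fasting hormones and inflammation, was called with chromosome 8 only. It ran from 4.90 to 6.18 log2 CPM (median 5.51) in B6 and from 4.40 to 5.48 (median 5.03) in (B6 x B6.A8)F1. The whole (B6 x B6.A8)F1 group was thus below the B6 median, with a fitted fall of Cebpb of 0.45 (SE 0.17, adjusted p = 0.0362). This Cebpb call was lost with 10 surrogate variables. It was also lost in the refit without the mouse with hardly any Y-linked counts, which belongs to neither of these strains. The Cebpb estimate for chromosome 5 was nearly as large, at -0.42 (SE 0.16), but was not called (adjusted p = 0.268). For chromosome 14 the Cebpb estimate was -0.01 (SE 0.16), and A14:A8 was 0.17 (SE 0.27). Of the 8 Cebpb main effects, 7 were negative and 1 positive. The strain means of Cebpb spread more than those of Hnf4a, from 4.88 ± 0.62 in (B6.A3 x B6.A5)F1 (n = 5) to 5.97 ± 0.34 in (B6.A14 x B6.A10)F1 (n = 5), with a median SD of 0.35.

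Cebpa, which drives gluconeogenic and urea cycle genes in mature hepatocytes, had 0 calls. In B6 it ran from 6.75 to 7.83 (median 7.26), in (B6 x B6.A8)F1 from 6.71 to 7.15 (median 6.997) and in (B6.A14 x B6)F1 from 6.73 to 7.11 (median 7.04). Both single CSSs lay within or just below the lower part of the B6 range. The fitted Cebpa changes were -0.12 (SE 0.10, adjusted p = 0.412) for chromosome 8 and -0.12 (SE 0.09, adjusted p = 0.366) for chromosome 14. This result depended on the covariates. Without surrogate variables Cebpa was called lower with chromosome 8 and with chromosome 14 by 0.29 and 0.27 (adjusted p = 0.0131 and 0.0394), and A14:A8 was called at 0.48 (adjusted p = 0.0159). With 5 within-strain components Cebpa was also called, at -0.32, -0.27 and 0.48 (adjusted p = 0.0169, 0.0337 and 0.0308).

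Prox1, a repressor of Nr5a2 and Hnf4a activity in hepatocytes, had no main effect called, with estimates from -0.15 to 0.20. It was called for A14:A8, at 0.38 (SE 0.14, adjusted p = 0.0254). The 5 mice of (B6.A14 x B6.A8)F1 had Prox1 log2 CPM of 7.16, 7.33, 6.69, 7.03 and 6.88, against 6.41 to 6.83 (median 6.69) in (B6.A14 x B6)F1, 6.37 to 6.91 (median 6.75) in (B6 x B6.A8)F1 and 6.42 to 7.09 (median 6.81) in B6. Thus 3 of the 5 were above every mouse of both single CSSs, 2 of them also above every B6 mouse, and 2 were within. The Prox1 call was lost when 1 of the 5 mice was left out (highest adjusted p = 0.0984), with 5 within-strain components (0.26, adjusted p = 0.189) and with 10 surrogate variables (0.15, adjusted p = 0.599). Onecut1, a cut-homeodomain factor upstream of other factors of the set, had 0 calls, with SEs between 0.33 and 0.40 for main effects. The B6 values of Onecut1 ran from 0.01 to 3.96 log2 CPM, and the highest mouse set the width of this range.

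The next question was whether small factor changes went with broad effects in trans. Chromosome 8 had called changes in 29.4% of 12598 trans genes (1626 higher and 2075 lower) and in 4 of 9 factors. Chromosome 14 had 22.2% (1260 higher and 1597 lower) and 3 of 9 factors, and A14:A8 had 32.3% (2191 positive and 1741 negative) and 3 of 9. With 10 surrogate variables these effects had 0, 0 and 1 of 9 factors called. With no surrogate variables they had 5, 4 and 5, and with 5 within-strain components 5, 4 and 3. The factors also changed where few genes did. Chromosome 4, with 12.7% of trans genes called, had 3 factors, chromosome 6, with 7.76%, had 1, and chromosome 3, with 3.22%, had 2. Chromosomes 10, 17 and 5, with 6.4%, 3% and 0.219% of trans genes, had none. These counts are tied to breadth, because p-values were adjusted within each effect and the cut-off is looser where more genes change. Hnf4a with chromosome 17 was not called (unadjusted edgeR p = 0.00349), while Cebpb with chromosome 8 was (unadjusted edgeR p = 0.0098). Counts of called factors therefore cannot show whether factor changes go with breadth.

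Among the interactions, A6:A8 (25.2% of trans genes called) and A3:A8 (7.71%) had 2 factors each, as did A14:A4 (4.46%). A17:A8 (8.82%), A14:A10 (4.09%) and A3:A10 (1.18%) had 1 each. There were none for A14:A5 (4.1%), A17:A4 (1.15%), A6:A4 (0.476%), A17:A10 (0.116%) and A6:A10 (0.00836%), nor for A3:A5, A6:A5 and A17:A5, where 0% of trans genes were called. The looser cut-off of broad effects enters here too. For Hnf4a, A6:A4 and A14:A8 were both 0.41, with unadjusted edgeR p = 0.00145 and 0.00263, yet only A14:A8 was called. By size, Hnf4a moved by about as much with chromosome 3 (0.29 lower, 3.22% of trans genes) as with chromosome 8 (0.32 lower, 29.4%), whereas Nr5a2 was at 0.00 (SE 0.05) with chromosome 3. Nr5a2 was called only for the broadest 2 main effects, where the cut-off was loosest. With chromosome 17 it was at -0.15 (SE 0.05, adjusted p = 0.0758). The median absolute log2 change of the 9 factors was 0.12 for chromosome 8, below the 0.15 of all trans genes, and 0.21 for chromosome 14, above the 0.13 of all trans genes. For A14:A8 the medians were 0.27 and 0.26.

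**Figure D4:**
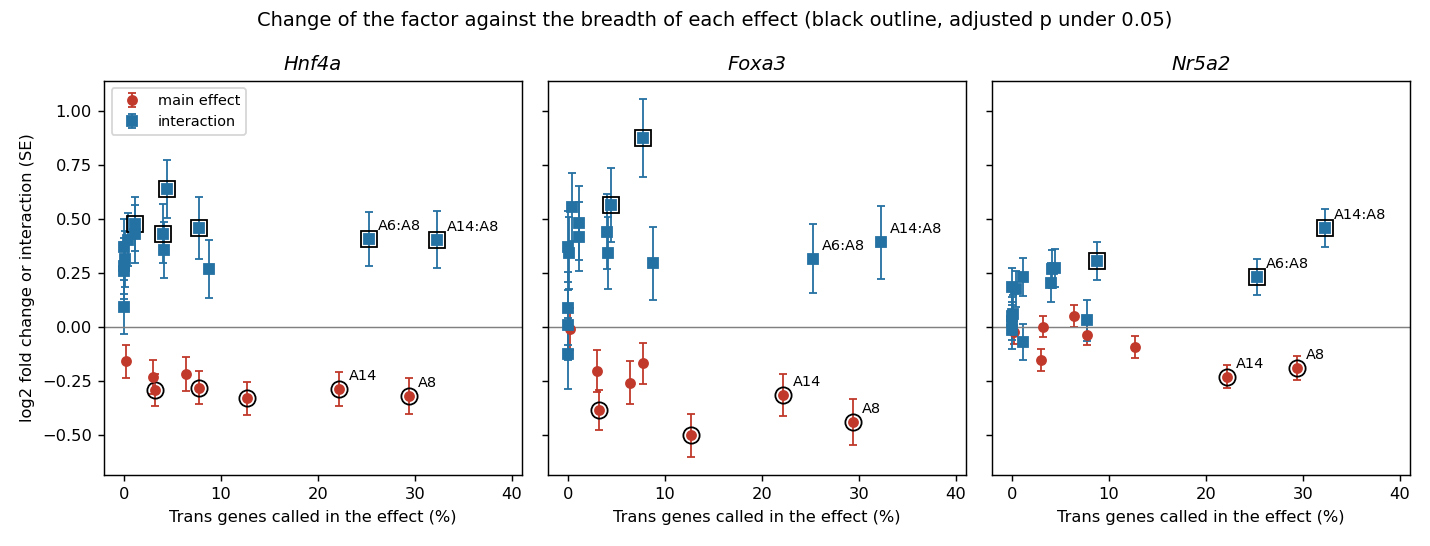
The fitted log2 change or interaction (with SE) of Hnf4a, Foxa3 and Nr5a2 is plotted against the percentage of trans genes called in the same effect, for 8 main effects (circles) and 15 interactions (squares), with black outlines for an adjusted p under 0.05. Hnf4a lies between -0.33 and -0.16 for all main effects from 0.219% to 29.4% of trans genes. The called Nr5a2 main effects are the 2 broadest, where the cut-off for a call is loosest.

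The hepatocyte markers moved with the same strains. Their summed level was 101169 to 160081 CPM (median 120399) in B6, 54651 to 113385 (median 81251) in (B6 x B6.A8)F1, 60082 to 127519 (median 89417) in (B6.A14 x B6)F1 and 101573 to 127687 (median 118805) in (B6.A14 x B6.A8)F1. Of the 6 markers, 5 were lower with chromosome 8 and 4 with chromosome 14, led by Cps1, while Ttr was not called (-0.05, SE 0.07, with chromosome 8). Summed Kupffer markers had medians of 290 CPM in B6, 325 with chromosome 8, 344 with chromosome 14 and 271.1 with both, and stellate markers 306, 317.5, 315 and 267. The part of cell composition in the factor changes was not tested.

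To see whether chromosomes 8 and 14 lowered the factors where B6 was not the reference, each double CSS was compared with the single CSS that had its other A/J chromosome. This comparison was chosen after the values had been seen. It took in 72 pairs of a factor and a background, of which 3 were called and none of these was lower. Over the same contrasts the share of all trans genes called ran from 0.0311% to 20.5%, and their direction was not counted. Chromosome 8 raised Nr5a2 by 0.27 (SE 0.07, adjusted p = 0.00236) where chromosome 14 was already A/J, with 14.6% of trans genes called. Chromosome 14 raised it by 0.23 (SE 0.07, adjusted p = 0.00898) where chromosome 8 was already A/J, with 20.5% called. Hnf4a was raised by chromosome 14 in mice with A/J chromosome 4 (0.35, SE 0.10, adjusted p = 0.0431), with 2.19% called. At an unadjusted p under 0.05, 8 pairs were higher and 3 lower.

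Hnf4a estimates on these backgrounds ran from -0.05 (SE 0.11) for chromosome 8 with A17 to 0.35, and none was near the -0.32 and -0.29 seen against B6. Chromosome 8 with A3, A6 and A17 had 0.0397%, 1.1% and 0.111% of trans genes called, and chromosome 14 with A5 and A10 had 0.0311% and 0.0544%. Foxa3 was 0.44 (SE 0.15, adjusted p = 0.329) for chromosome 8 with A3 and between -0.14 and 0.25 elsewhere. Prox1 went both ways and was not called. It was -0.39 (SE 0.13, adjusted p = 0.286) for chromosome 8 with A3 and -0.29 (SE 0.11, adjusted p = 0.154) for chromosome 14 with A4. Its highest estimate was 0.28 (SE 0.10, adjusted p = 0.0506), for chromosome 8 with A14. These contrasts share mice with the interactions above and are the same data in another order.

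**Figure D5:**
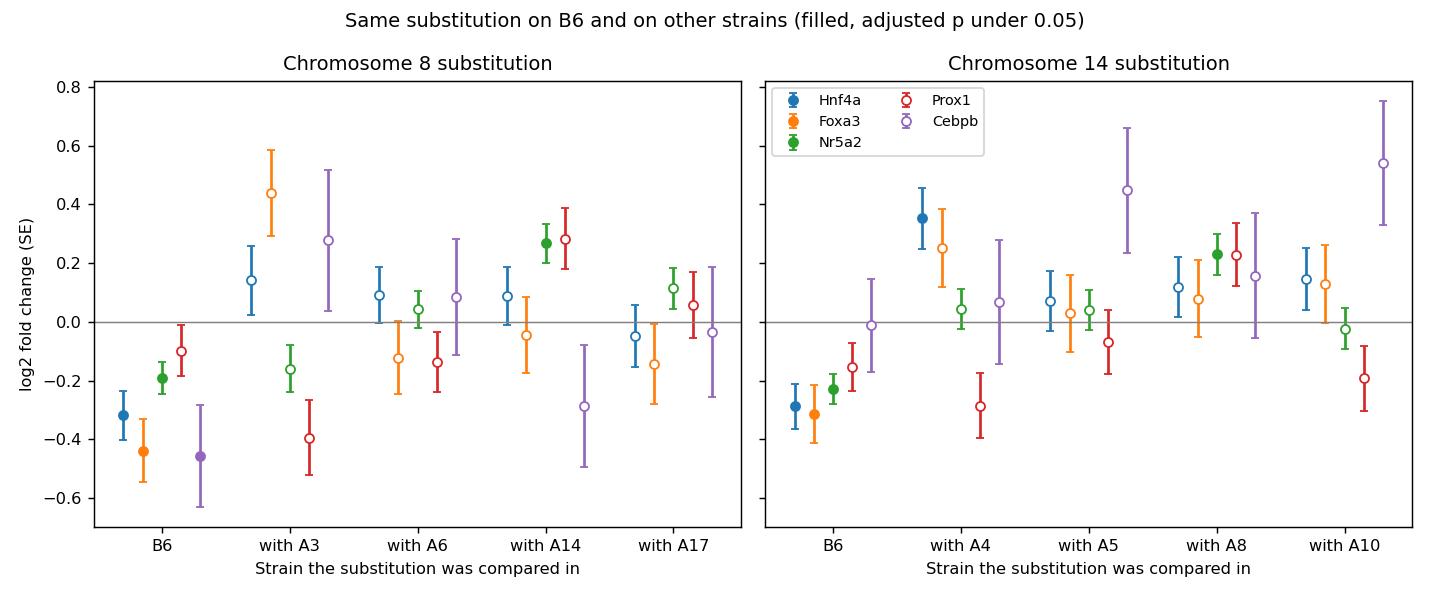
Fitted log2 fold change (with SE) of 5 factors for the chromosome 8 (left) and chromosome 14 (right) substitution, against B6 and against single CSSs with another A/J chromosome, with filled points for an adjusted p under 0.05. Filled points are lower on B6 and higher elsewhere, namely Nr5a2 at 0.27 and 0.23 and Hnf4a at 0.35.

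Other regulators of liver genes were taken from a list of 30, all measured. With chromosome 8, 9 of them were called (2 higher and 7 lower, 30% of the list), with chromosome 14, 8 (2 higher and 6 lower, 26.7%), and for A14:A8, 9 (8 positive and 1 negative, 30%), which is near the 29.4%, 22.2% and 32.3% of trans genes. The median log2 change of the list was -0.10, -0.06 and 0.28, beside -0.01, -0.01 and 0.02 for all genes. With chromosome 8 the largest were Nfil3, a repressor tied to the clock (0.72, SE 0.27, adjusted p = 0.0293), the xenobiotic receptor gene Nr1i2 (-0.51, SE 0.09, adjusted p = 1.93e-06) and Atf5 (-0.44, SE 0.11, adjusted p = 0.00162). With chromosome 14 they were Nr0b2, which encodes the repressor SHP (-0.72, SE 0.27, adjusted p = 0.0436), Nfil3 (0.65, SE 0.25, adjusted p = 0.0454) and the clock output factor gene Tef (-0.45, SE 0.16, adjusted p = 0.0351). For A14:A8 they were Dbp (1.94, SE 0.71, adjusted p = 0.0276), Nfil3 (-1.42, SE 0.44, adjusted p = 0.00788) and Nr0b2 (1.21, SE 0.46, adjusted p = 0.034).

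Of 33 genes from lists of textbook targets, each counted once, 19 were called with chromosome 8 (1 higher and 18 lower), 17 with chromosome 14 (2 higher and 15 lower) and 16 for A14:A8 (14 positive and 2 negative). These are 57.6%, 51.5% and 48.5% of the list, beside 29.4%, 22.2% and 32.3% of all trans genes. The median log2 change of the targets was -0.40, -0.29 and 0.49. The targets are highly expressed hepatocyte genes that overlap with the markers above, some belong to several factors, and Hnf4a itself is among them as a target of ONECUT1.

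Of 12 HNF4A targets, 4 were called with chromosome 8 (1 higher and 3 lower), 4 with chromosome 14 (1 higher and 3 lower) and 5 for A14:A8 (3 positive and 2 negative). The bile acid importer gene Slc10a1 fell by 0.55 (SE 0.09) with chromosome 8 and by 0.39 (SE 0.09) with chromosome 14, and its A14:A8 interaction was 1.13 (SE 0.15, adjusted p = 6.34e-10). Apob, the structural protein of very low density lipoprotein, and Mttp, which loads it with lipid, fell by 0.33 and 0.35 with chromosome 8 and by 0.37 and 0.37 with chromosome 14, with A14:A8 at 0.80 and 0.74.

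Of 7 FOXA targets, 5 were called lower with chromosome 8, 3 lower with chromosome 14 and 3 positive for A14:A8. Cps1, the first enzyme of the urea cycle, fell by 0.82 (SE 0.10, adjusted p = 2.78e-10) with chromosome 8 and by 0.64 (SE 0.09, adjusted p = 1.23e-07) with chromosome 14, and its interaction was 1.33 (SE 0.16, adjusted p = 1.68e-11). Igfbp1 fell by 1.40 (SE 0.38) and Tat, the tyrosine catabolic gene, by 0.91 (SE 0.21) with chromosome 8. Tat lies on chromosome 8 itself, so that this change was in cis. With chromosome 14, Tat fell by 0.50 and Alb by 0.40, and for A14:A8 Alb was at 0.83 and Pck1 at 0.61.

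Of 10 C/EBP targets, 8 were called lower with chromosome 8, 6 lower with chromosome 14 and 5 positive for A14:A8, and 2 of the 10 lie on chromosome 8. Besides Tat and Cps1 the largest were the fibrinogen chain gene Fga (-0.72, SE 0.12, with chromosome 8 and -0.59, SE 0.11, with chromosome 14) and the glycogen synthase gene Gys2 (-0.63, SE 0.13, with chromosome 14). For A14:A8, Fga was 0.96 and Gys2 was 0.97. Cebpa itself was not called in any of these 3 effects, and Cebpb only with chromosome 8.

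Of 7 ONECUT1 targets, 2 were called with chromosome 8, namely Pfkfb1 (-0.40, SE 0.10) and Hnf4a. With chromosome 14 Hnf4a and Pfkfb1 (-0.29, SE 0.10) were called lower, and for A14:A8 only Hnf4a. Of 7 NR5A2 targets, 3 were called lower with chromosome 8, 4 were called with chromosome 14 (1 higher and 3 lower) and 4 were positive for A14:A8. The sterol exporter genes Abcg5 and Abcg8 fell by 0.49 (SE 0.13) and 0.48 (SE 0.14) with chromosome 8, and the lipoprotein receptor gene Scarb1 by 0.42 (SE 0.08). With chromosome 14 Abcg5 also fell by 0.49 (SE 0.12), and A14:A8 was 1.21 (SE 0.20, adjusted p = 5.3e-07) for Abcg5 and 0.89 (SE 0.22) for Abcg8.

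Among the 20 B6 mice, which carry no substitution, the level of a factor was set against a score of the broad programme, the mean log2 CPM of trans genes called higher minus that of genes called lower with chromosome 8 or with chromosome 14, leaving out the 9 factors. The 9 factors and 2 scores gave 18 relations, and 0 of them passed an adjusted p under 0.05 by permutation (100000 resamples, two-sided), while 2 had an unadjusted p under 0.05. Both were Prox1, with r = -0.52 (permutation p = 0.0185, adjusted p = 0.333) and rho = -0.51 (permutation p = 0.0214, adjusted p = 0.385) for the chromosome 8 score, and r = -0.46 (permutation p = 0.0406, adjusted p = 0.366) and rho = -0.45 (permutation p = 0.0479, adjusted p = 0.431) for the chromosome 14 score. Without the 2 mice farthest from the Prox1 median, r was -0.43 and -0.35. For Hnf4a, r was -0.19 and -0.14, for Nr5a2 0.25 and 0.22, for Foxa3 -0.01 and -0.04 and for Cebpb 0.41 and 0.39, with adjusted permutation p between 0.392 and 0.983 for these 8 relations. The scores were nearly the same measure in these mice (r = 0.99 with each other) and fell with sequencing depth, with r = -0.70 and -0.75 against the log10 total count. Given depth, the Prox1 values were -0.44 and -0.35 and the Nr5a2 values 0.45 and 0.44, with adjusted permutation p between 0.317 and 0.396. After removal of the surrogate variables the Prox1 values were -0.12 and -0.09 and the Nr5a2 values -0.16 and -0.25, of the opposite sign, with an adjusted permutation p of 0.748 for all 4.

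The patterns of the factors over the 24 strain means were also compared with those of other genes, as a description of points that share depth and mice. Hnf4a was most like Txlna (r = 0.86) and Stim1 (0.83), Cebpa like Aes (0.90) and Sec14l2 (0.89), and Nr5a2 like AI464131 (0.91) and Ugt1a6b (0.87), whose reads can be shared with other Ugt1a transcripts. Foxa3 was most like Banf1 (0.77) and Uqcc1 (0.77), Foxa2 like Nuak2 (0.86) and Fzd8 (0.76), Foxa1 like Med15 (0.68) and Itga5 (0.66), and Cebpb like Fbxo31 (0.80) and Ripk4 (0.77). Onecut1 was most like Dusp6 (0.75) and Cish (0.74) and Prox1 like Rreb1 (0.80) and Lyst (0.76). No factor had another as its most similar gene. The highest r between factors was 0.69, for Cebpa and Nr5a2, followed by Foxa3 with Cebpa (0.61) and Foxa2 with Cebpa (0.59), and Hnf4a was at 0.49 with Foxa3, 0.41 with Nr5a2 and -0.05 with Prox1.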

How the data were processed

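Liver RNA of each mouse was sequenced and counted per gene. According to the methods of the study, the authors aligned reads with TopHat2 to mm10, aligned the reads left over to an A/J genome, counted them per gene with HTSeq and dropped lowly counted genes. The deposited values are whole-number counts per gene, one column per mouse, not normalized. All 154 columns were matched to mice by their labels. Reads that map better to B6 than to A/J sequence could lower counts of genes on substituted chromosomes, where none of the 9 factors lies. Of 13289 genes, 13242 were given a position through GENCODE vM21 on mm10 and 47 had none.

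The counts were scaled by TMM and fitted in edgeR 4.0.16 (R 4.3.3) by the quasi-likelihood F-test (legacy fit) with terms for 8 single substitutions and 15 interactions, B6 as reference, and svaseq (sva 3.50.0) giving 5 surrogate variables. P-values of cis and of trans genes were adjusted separately by Benjamini-Hochberg in every effect, and a gene was called at an adjusted p under 0.05. Levels are log2 CPM with a prior count of 2. The joint tests took all strain or all interaction coefficients. Target and regulator genes were named by a rule, the 3 with the largest change among those called in each list and effect. Correlations in B6 mice used 100000 permutations. Alternatives were 0 or 10 surrogate variables, 5 principal components of within-strain residuals, the size factors and Wald test of DESeq2 1.42.0, filters of 15 counts in 75% of mice or in every mouse, the newer edgeR fit, cis and trans genes adjusted together, an FDR of 0.01 and each double CSS mouse left out. The fit when leaving out the mouse with hardly any Y-linked counts was added after seeing the data. It estimated the scaling, surrogate variables and spread again, so it differs from the main fit in more than that mouse. The script was tested on simulated data. No mice had identical counts, and replicates were separate mice. The members and lists were chosen with earlier results of these data known. Total counts per mouse ran from 4638701 to 30465477, and their part in the precision was not tested.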

Additional observations from a re-analysis of the deposited data

Results flagged for a closer look

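Some single mice lay far from the rest of their strain for a factor. Of 198 groups of 4 to 10 mice, 12 had such a mouse, and chance marks about 1 in 20 groups. For Cebpb the mice were replicate 7 of (B6.A14 x B6)F1 at 4.78 log2 CPM, replicate 4 of (B6.A17 x B6)F1 at 4.88, replicate 4 of (B6.A17 x B6.A5)F1 at 4.40, all low, and replicate 4 of (B6.A17 x B6.A4)F1, high at 5.64. For Nr5a2 they were replicate 3 of (B6.A14 x B6.A4)F1, low at 5.93, which is the mouse with hardly any Y-linked counts, and replicate 3 of (B6.A17 x B6.A4)F1, low at 6.11. For Hnf4a replicate 3 of (B6.A3 x B6.A10)F1 was high at 9.37, for Foxa2 replicate 2 of (B6.A6 x B6.A8)F1 at 4.57, for Cebpa replicate 2 of (B6.A14 x B6.A4)F1 at 7.65 and for Prox1 replicate 3 of (B6.A14 x B6.A10)F1 at 7.01. For Foxa3 replicate 4 of (B6.A14 x B6.A10)F1 was low at 5.32, and for Onecut1 replicate 1 of (B6.A3 x B6.A10)F1 at -0.81.

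The effect of a substitution on a factor differed with the other chromosome in 12 interactions, each tested as an edgeR interaction term and past an adjusted p of 0.05. For Hnf4a the log2 interactions were 0.64 (A14:A4), 0.48 (A3:A10), 0.46 (A3:A8), 0.43 (A14:A10), 0.41 (A6:A8) and 0.41 (A14:A8). For Foxa3 they were 0.88 (A3:A8) and 0.56 (A14:A4), for Nr5a2 0.46 (A14:A8), 0.31 (A17:A8) and 0.23 (A6:A8), and for Prox1 0.38 (A14:A8).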

How the results depend on the processing

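The number of surrogate variables moved the counts most. Main effects called on the factors went from 13 to 21 with none, 2 with 10 and 7 at an FDR of 0.01, and interactions called from 12 to 22, 3 and 4. With 10 surrogate variables the joint interaction test called 0 of the factors in place of 4, the regulator list had 3 calls in place of 26 over the 3 effects and the target list 26 in place of 52, while 8.90%, 5.66% and 10.96% of trans genes were called for chromosome 8, chromosome 14 and A14:A8. The factors called in those 3 effects were then 0, 0 and 1. The regulator list had 14 calls with 5 within-strain components and 14 at an FDR of 0.01. Leaving out each double CSS mouse gave 11 to 14 interactions called, where only the interaction of that mouse's own strain was counted anew. These fits kept the scaling, surrogate variables and spread of the fit to all mice, so losses in other interactions could not appear. The full refit without the mouse with hardly any Y-linked counts gave fewer calls, as stated above. Over the settings for chromosome 8, chromosome 14 and A14:A8, a factor lost its call in 17 cases, gained one in 9 and kept direction and call in 295, and estimates of factors that were not called changed sign in 18. Without surrogate variables these were Foxa1 with chromosome 8 (0.15) and Onecut1 with chromosome 8 (-0.21) and A14:A8 (0.34). With 10 they were Foxa1 with chromosome 8 (0.13) and A14:A8 (-0.084), Cebpa with chromosome 14 (0.0014), Cebpb with chromosome 14 (0.18) and A14:A8 (-0.12), Onecut1 with chromosome 8 (-0.067) and A14:A8 (0.23) and Prox1 with chromosome 8 (0.0072). With 5 components they were Foxa1 (0.017), Foxa2 (0.047), Onecut1 (-0.15) and Prox1 (0.011) with chromosome 8, and Foxa2 (-0.13) and Onecut1 (0.17) for A14:A8. With the exclusion of the mouse with hardly any Y-linked counts Cebpb with chromosome 14 was 0.010. The causes were not tested. No paired analysis was possible because the labels give mouse identifiers and no replicate numbers shared between strains. Onecut1 and Foxa1 had the lowest counts, and the part of depth in the width of their SEs was not tested.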
